A study of Drosophila melanogaster with 4 samples.

Results

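The distal X block is the set of transcripts whose FlyBase identifiers run from FBtr0070000 to FBtr0071349, taken by number alone and without regard to expression. It holds 1029 of the 15634 transcripts measured, and the other 14605 serve here as the comparison. The study measured steady-state transcript levels in Kc and Mbn2 cells, which are established lines of *Drosophila melanogaster*. Kc cells came from embryos, whereas Mbn2 cells came from larval blood of the tumour mutant l(2)mbn. For each line 2 biological replicates were hybridised, each to 1 single-colour (Cy3) array, and the labels do not say whether these were separate cultures, so p-values may measure technical spread only. Neither line was treated, and neither stands for other lines of its origin. Mbn2 cells were fed with 10% fetal calf serum while Kc cells grew without serum, so line and medium cannot be told apart. Genotypes, karyotypes and passage numbers of the lines are not given in the labels.

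In flies the X chromosome is present as a pair in females and singly in males, and in males the MSL complex with its roX RNAs raises transcription along the whole X so that its output balances that of the autosomes. The distal part of the X is classical ground of fly genetics, where yellow, white and Notch lie. Neighbouring fly genes are often expressed in the same tissues, and long stretches of chromatin can be silent together in a given cell type. Cultured lines differ in the cell type they resemble and often in the copy number of chromosome segments. The arrays measured RNA alone, and neither copy number nor binding of the MSL complex was measured.

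The identifiers are paired with few gene names. The table of RefSeq genes used here (assembly Release 6 plus ISO1 MT) recorded identifiers of 44 transcripts on the array, and only 2 of them lay in the block. Both lie on the X. The former, FBtr0071140, carries the reading frames of ND-MNLL and CG45089, and the latter, FBtr0071349, is the last of the block and belongs to fend. Of the 42 named transcripts outside the block, 41 lie on other chromosomes and 1 on the X. Among the RefSeq genes, 862 protein-coding X genes lie between the distal end and fend, against 1029 transcripts in the block. Of those genes 84.5% lie no farther than ND-MNLL, and 84.2% of the block's transcripts are numbered no higher than its transcript. This is a single landmark, and the order of the other members was not checked. For the other 1027 transcripts the place on the X rests on the numbering. The files name no build, so no coordinates are given. Consecutive numbers may belong to transcripts of the same gene or of overlapping genes, which could not be checked.

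A smaller share of the block than of the other transcripts was dim in these lines. All levels are log2 RMA values, in which a difference of 1 is a 2-fold difference. The median level of the block was 9.15 in Kc replicate 1, 9.14 in Kc replicate 2, 9.13 in Mbn2 replicate 1 and 9.23 in Mbn2 replicate 2. Among the other transcripts it lay between 8.48 and 8.56 in the 4 samples. The gap comes from the lower end of the scale: 23.3% to 24.4% of the block lay under 6 in a sample, against 34.0% to 35.0% of the other transcripts, whereas the upper quartiles, 11.22 to 11.31 in the block and 11.18 to 11.21 elsewhere, nearly coincided. The lines overlapped in this share, with 24.0% and 23.3% in the Kc samples and 23.7% and 24.4% in the Mbn2 samples.

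With line means under 6 called dim and over 8 called bright, 549 transcripts of the block (53.4%) were bright in both lines, against 49.2% of all transcripts. Another 190 (18.5%) were dim in both, against 29.3% of all. A further 261 (25.4%, against 18.6% of all) lay between the limits in at least 1 line. Dim transcripts of the block were also less often gathered together along the numbering. The longest unbroken run of transcripts dim in both lines held 7 members (numbers 70731 to 70737), and 14.7% of the dim members lay in runs of 5 or more. Among the other transcripts the longest such run held 24, and 36.3% of the dim ones lay in runs of 5 or more. A lower share of dim transcripts by itself gives shorter runs, and that part was not separated. Runs of transcripts bright in both lines took 47.9% of the bright members and 47.2% of the bright transcripts elsewhere, and the longest in the block held 16 members (numbers 70303 to 70321).

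Replicates of a line differed little in the block. The median absolute difference between replicates was 0.13 in Kc and 0.12 in Mbn2, the same as elsewhere when rounded so. Replicates were more than 1 apart for 2 of the 1029 members in Kc and for 5 in Mbn2. The median absolute difference between the line means was 0.47 in the block, against 0.36 among the other transcripts. Among transcripts bright in both lines it was 0.47 in the block and 0.48 elsewhere. Among members dim in both lines it was smaller, 0.14. The plot of the level in each line shows the members gathered around the diagonal.

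**Figure D1:**
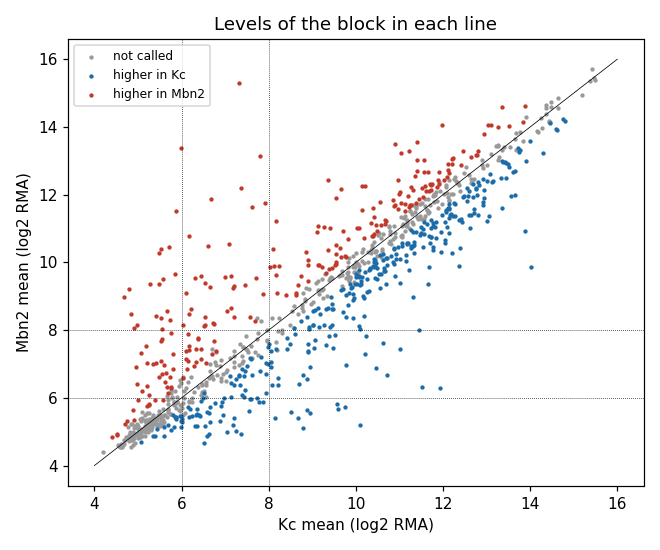
Mean level of each of the 1029 members in Kc (horizontal) and Mbn2 (vertical), both in log2 RMA units, each the mean of 2 samples. Dotted lines mark the limits of dim (6) and bright (8), the solid line marks equal levels, and colours give the call; the 235 members higher in Mbn2 reach farthest above the line where Kc was under 8, and the 344 higher in Kc lie below it across the scale.

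limma was fitted to all 15634 transcripts, and a difference between the lines is called where the two-sided p, adjusted by the Benjamini-Hochberg method, was under 0.05. In the block 579 of 1029 transcripts were called (56.3%, against 48.2% of all transcripts). Of these, 344 were higher in Kc (33.4%, against 27.0% of all) and 235 were higher in Mbn2 (22.8%, against 21.2% of all). At least 2-fold differences were called for 128 members higher in Kc (12.4%, against 10.2% of all) and for 116 higher in Mbn2 (11.3%, against 10.5% of all). RMA values at least 8-fold apart were called for 15 members higher in Kc and 27 higher in Mbn2, 1.46% and 2.62% of the block, where 1.67% and 2.8% of all transcripts were.

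Counted over all levels together, the largest part of the excess over the background was in small differences towards Kc. Members called under 2-fold numbered 216 towards Kc (21.0%, against 16.8% of all transcripts) and 119 towards Mbn2 (11.6%, against 10.7% of all). Both Kc samples lay above both Mbn2 samples for 483 members (46.9%, against 40.4% of all), and the opposite held for 337 (32.8%, against 32.0% of all). Since dim transcripts are rarely called and the block holds fewer of them, the shares were also taken within levels. Among members bright in both lines 62.1% were called, against 60.3% of bright transcripts elsewhere. Of these bright members 39.5% were higher in Kc and 22.6% in Mbn2, against 35.4% and 24.9% elsewhere. Of the 261 members between the limits in at least 1 line 68.6% were called, against 68.5% of such transcripts elsewhere. In that class 38.3% were higher in Kc and 30.3% in Mbn2, against 36.3% and 32.2% elsewhere. Among members dim in both lines 30 of 190 were called (15.8%, against 9.35% of dim transcripts elsewhere), 17 towards Kc and 13 towards Mbn2, none of them by 2-fold or more.

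The split between the directions depended on the centre of the comparison. When differences were measured from the median of all transcripts over 9 in both lines, -0.11, 293 members were higher in Kc and 288 in Mbn2, so that 50.4% of the block's calls were towards Kc in place of 59.4%. The same centring moved the other transcripts from 55.7% to 47.3%. The block's share of transcripts higher in Kc was then 28.5%, against 22.5% elsewhere, and its share higher in Mbn2 was 28.0%, against 25.1%.

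The median difference (Mbn2 minus Kc) was -0.11 over the block and -0.04 over the other transcripts. Among transcripts bright in both lines it was -0.19 in the block and -0.12 elsewhere. The gap between block and others among bright transcripts was therefore -0.07, and it was between -0.02 and -0.09 in the 4 pairs of an Mbn2 with a Kc sample, which share samples. Measured in the same way between replicates, this gap was -0.0011 in Kc and 0.033 in Mbn2. The smallest gap between the lines was thus smaller than that between the Mbn2 replicates, so the lean of the block as a whole did not exceed the replicate spread in every pair of samples. Without Mbn2 replicate 1 the gap among bright transcripts fell to -0.0445. Over all levels the gap was -0.0631, and it was -0.0416 without Kc replicate 1 and -0.0979 without Kc replicate 2.

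By level, the block departed most from the other transcripts in the middle of the scale. Members with a mean level from 8 to 9 had a median difference of -0.31, against -0.15 for other transcripts at that level. From 10 to 11 the medians were -0.26 in the block and -0.13 elsewhere. From 12 to 13 the order turned, with -0.09 in the block and -0.12 elsewhere. It turned back from 13 to 14, with -0.15 in the block and -0.08 elsewhere. At 14 and over, where the block has 26 members, 19.2% were higher in Kc and 3.85% in Mbn2, against 22.1% and 22.5% elsewhere. The plots of the median difference and the share of calls by level show these values.

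**Figure D2:**
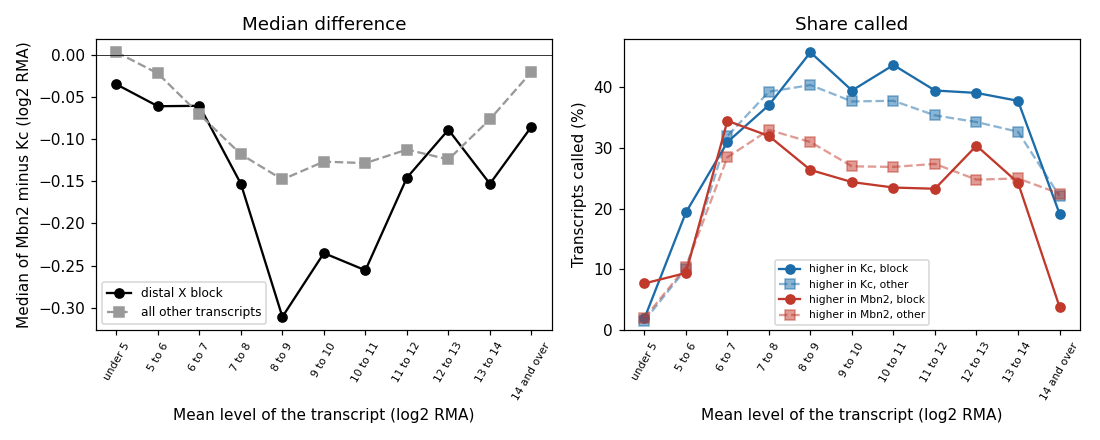
Left, median of Mbn2 minus Kc (log2 RMA) for transcripts in each class of mean level over the 4 samples; right, percent of them called higher in Kc (blue) or in Mbn2 (red). Solid lines with circles are the block and dashed lines with squares all other transcripts. The block's medians lie below the others in every class except 6 to 7 and 12 to 13, with the widest gap from 8 to 9.

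Along the numbering the difference between the lines was uneven. The members were placed in the order of their numbers and divided into 21 stretches, 20 of 50 transcripts and a last one of 29. The median difference was below 0 in 18 stretches and ran from -0.32 in stretch 5 to 0.33 in stretch 17. In 15 stretches it was below 0 in all 4 pairs of samples (71.4%, against 48.6% of such stretches over the whole array), and in 2 it was above 0 in all 4 (9.52%, against 21.1% over the whole array). The stretch medians had an SD of 0.17 in the block and 0.18 among 292 stretches of other transcripts, whose medians ran from -0.60 to 0.56. Between replicates the stretch medians of the block ran from -0.07 to 0.05 in Kc, with an SD of 0.04, and from -0.05 to 0.12 in Mbn2, with an SD of 0.05. Differences between stretches were therefore several times larger than those between replicates, but of the usual size for this array. Signs of stretch medians between -0.11 and 0 turn when differences are centred on bright transcripts. So centred, 61.9% of the block's stretches had a median below 0, in place of 85.7%. The counts over all 4 pairs of samples depend on the centre too and were not taken again after centring.

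**Figure D3:**
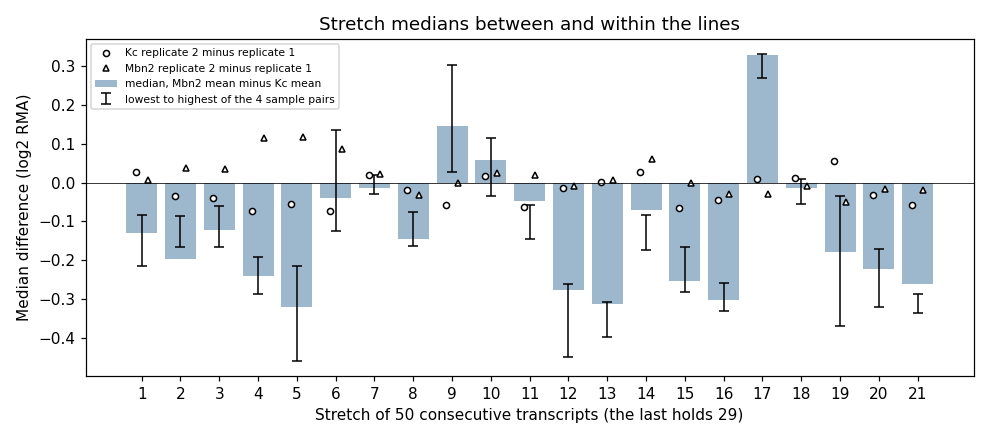
Median difference (log2 RMA) in each of the 21 stretches of the block. Bars give the median of Mbn2 mean minus Kc mean, whiskers the lowest to the highest median over the 4 pairs of samples (a median of means need not lie between them), and open symbols the medians of replicate differences within a line; stretch 17 stands at 0.33 between stretch 16 at -0.30 and stretch 18 at -0.01.

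Stretch 17, numbers 71055 to 71117, had the highest median of the 21 stretches and was picked for it. Its median difference was 0.27 to 0.33 in the 4 pairs of samples, which share samples. Between the Kc replicates it was 0.0083 and between the Mbn2 replicates -0.03. As the stretch was picked by its value, this contrast is no separate evidence, and stretch medians elsewhere reached 0.56. Of the 50 transcripts of stretch 17, 22 were called higher in Mbn2 (44.0%, against 21.2% of all transcripts). Another 6 were higher in Kc (12.0%, against 27.0% of all). The differences were small and shared by many transcripts, since only 3 of the 22 reached 2-fold. Its 26 transcripts bright in both lines had a median difference of 0.43. They included an unbroken run of 10 bright transcripts (numbers 71089 to 71098) with levels of 10.40 to 14.36 in Kc, a median difference of 0.43 and 8 calls, 6 towards Mbn2 and 2 towards Kc. The stretches on either side differed from it: stretch 16 had 23 calls towards Kc and 12 towards Mbn2, and stretch 18 had 10 and 8.

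The region before it leaned towards Kc. Stretches 12 to 16, numbers 70735 to 71054, were grouped after their values were seen. Of their 250 transcripts 110 were higher in Kc (44.0%, against 27.0% of all transcripts) and 51 in Mbn2 (20.4%, against 21.2% of all). The median difference was -0.24 over all 250 of them and -0.42 over the 125 bright in both lines. In the 4 pairs of samples the median over all of them lay between -0.24 and -0.28, whereas it was -0.02 between the Kc replicates and 0.0061 between the Mbn2 replicates. Bright members showed the lean most in stretch 12, where 17 of them had a median of -0.97, and in stretches 13 and 14, with -0.55 and -0.68. The bright median of stretch 12 lay below the lowest of the stretches of other transcripts, -0.90, but it rests on 17 transcripts. Among its 50 members stretch 12 also held 16 at least 2-fold higher in Kc and 3 at least 2-fold higher in Mbn2. Over the whole array 10.2% and 10.5% of transcripts were so called.

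The middle of the block held most of the large differences towards Mbn2. Stretches 6 to 10, numbers 70343 to 70675, were likewise grouped after their values were seen and hold 24.3% of the block. The block as a whole held 14 members with a difference above 4 (1.36%, against 1.64% of all transcripts), and 11 of them lay here. These stretches also held 52 of the 116 members at least 2-fold higher in Mbn2 and 28 of the 128 at least 2-fold higher in Kc. Their median difference was 0.03, and it was -0.0028 without Kc replicate 1. With all 4 samples there were 86 calls towards Mbn2 (34.4%, against 21.2% of all transcripts). Calls towards Kc numbered 66 (26.4%, against 27.0% of all). Centred on bright transcripts, the median was 0.14, with 97 calls towards Mbn2 against 54. Whether the region showed a common shift besides its large differences thus depended on the centre. The first 5 stretches, with numbers up to 70342, had a median of -0.21. They held 89 calls towards Kc (35.6%, against 27.0% of all transcripts) and 42 towards Mbn2 (16.8%, against 21.2% of all). Their calls towards Kc fell to 57 without Mbn2 replicate 1, and those towards Mbn2 to 27 without Mbn2 replicate 2. The last 4, from number 71118 on, had 59 calls towards Kc (33.0%) against 24 towards Mbn2 (13.4%) and a median of -0.18. Centred on bright transcripts, the median was -0.0955 in the first 5 stretches, with 77 calls towards Kc against 54, and -0.0667 in the last 4, with 51 against 38. The same centring left stretches 12 to 16 at a median of -0.12, with 95 against 63.

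**Figure D4:**
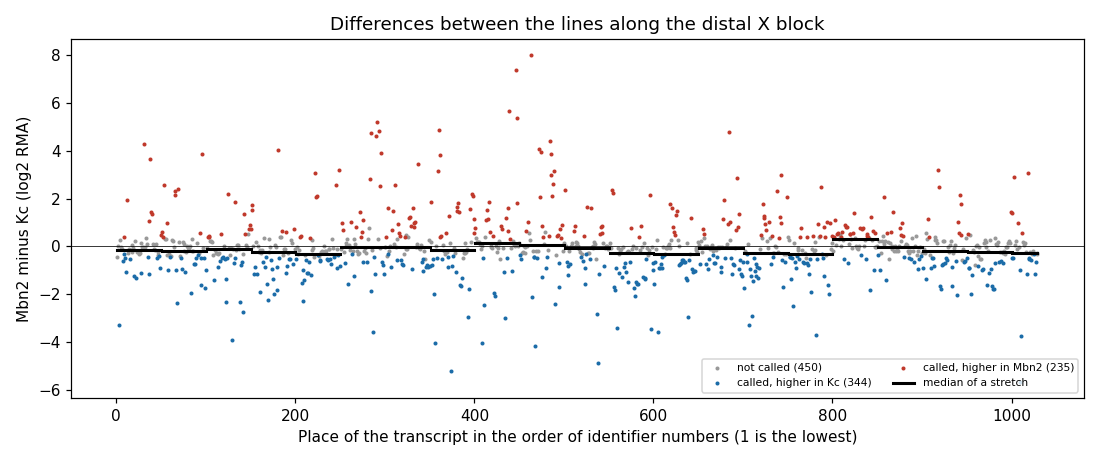
Difference of each member (Mbn2 minus Kc, log2 RMA) against its place in the order of identifier numbers, from 1 to 1029. Grey points were not called (450), blue points were called higher in Kc (344), red points higher in Mbn2 (235), and black bars are the medians of the 21 stretches; of the 14 points above 4, 11 lie in stretches 6 to 10.

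The values on either side of the block's last number were compared. Over the whole array 27.0% of transcripts were called higher in Kc and 21.2% in Mbn2. The last 50 members had a median difference of -0.23, with 17 calls towards Kc and 6 towards Mbn2. The next 50 transcripts on the array, numbered 71350 to 71411 and outside the block, had a median of 0.21, with 8 calls towards Kc and 17 towards Mbn2. This change is smaller than that between stretches 16 and 17 within the block, from -0.30 to 0.33. Before the block only 4 transcripts have lower numbers, so no such comparison can be made at its start.

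Neighbouring transcripts resembled each other over short distances. Across the members, the difference of a transcript and that of the next correlated at r = 0.25 (Spearman's rho 0.32, 1028 pairs), and 64.8% of neighbours had the same sign. Among the other transcripts these values were 0.31, 0.33 and 62.8%. At 5 places apart the correlation in the block was -0.05, with 52.3% of the same sign, against 0.07 and 54.2% elsewhere. Restricted to transcripts bright in both lines, neighbours correlated at 0.16 in the block and 0.26 elsewhere. These are correlations across transcripts measured on the same 4 arrays, and transcripts are not independent replicates, so they carry no p-value.

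Runs of consecutive members called in the same direction took a share of the calls close to that elsewhere. There were 15 runs of 5 or more, 8 towards Mbn2 and 7 towards Kc, against 70 and 100 elsewhere. They took 15.7% of the called members, against 15.6% of the called transcripts elsewhere. More of the block was called (56.3%, against 47.6% elsewhere), which by itself gives longer runs, and that part was not separated. The longest run in the block held 12 transcripts higher in Kc (numbers 70919 to 70932). Its median level was 9.47 in Kc replicate 1, 9.64 in Kc replicate 2, 8.14 in Mbn2 replicate 1 and 7.59 in Mbn2 replicate 2. Both Kc samples were higher, and the single differences ran from -3.27 to -0.46, of which 7 were at least 2-fold. All runs given here were picked as called members, so the separation of the lines within them follows from the choice. Without moderation of the variances 7 of the 12 were called.

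Stretch 13 held runs of both directions. There were 6 transcripts higher in Kc (numbers 70805 to 70811, median difference -0.91), then, after 10 other members of which 1 was called in each direction, 6 higher in Mbn2 (numbers 70824 to 70829, median 1.05). After 2 uncalled members came 9 higher in Kc (numbers 70832 to 70842, median -0.69). The run in the middle was bright in both lines for 5 of its 6 transcripts. Its median level was 11.20 and 11.17 in the Kc samples and 12.15 and 12.13 in the Mbn2 samples. Since the run was picked as called members, this separation follows from the choice. Of the run of 9, only 2 were called without moderation of the variances and 5 without Mbn2 replicate 1.

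The longest run towards Mbn2 held 7 consecutive transcripts, numbers 70658 to 70664. Its median level was 5.39 in Kc replicate 1 and 5.59 in Kc replicate 2, against 9.07 in Mbn2 replicate 1 and 9.17 in Mbn2 replicate 2. Of the 7, 5 were dim in Kc, and the Mbn2 means ranged from 6.13 to 9.37. The differences ran from 0.45 to 4.42 with a median of 2.99, and 6 were at least 2-fold. Another run of 5 higher in Mbn2 (numbers 70489 to 70495) had median levels of 6.32 and 6.56 in the Kc samples and 10.32 and 10.47 in the Mbn2 samples. Its differences ran from 0.40 to 4.86 with a median of 3.15. Of these 5, 3 were called without Kc replicate 1. Whether either run holds several genes or several transcripts of the same gene is unknown.

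Transcripts that were dim in a line and bright in the other were about as frequent in the block as elsewhere. The block held 19 members dim in Kc but bright in Mbn2 (1.85%, against 1.67% of all transcripts) and 10 bright in Kc but dim in Mbn2 (0.972%, against 1.23% of all). All 29 were called, but members chosen across the gap between these limits differ widely by rule, so this is no separate result. The 19 had a median difference of 3.87, with a range of 2.48 to 7.38, and their Mbn2 means lay between 8.02 and 13.36. The 10 had a median difference of -3.53, with a range of -4.87 to -2.74, and their Kc means lay between 8.15 and 10.09. Of the 19, 13 lay in stretches 6 to 10, which hold 24.3% of the members, and 6 of these lay in stretch 10 alone. That region was picked with the same differences already known, so the count is no separate evidence for it. In stretch 10, numbers 70659, 70660, 70661 and 70664 all belong to the longest run towards Mbn2. Numbers 70392 and 70393, also among the 13, are direct neighbours. How many genes the 13 stand for is unknown. The 10 in the opposite direction were scattered, with no more than 2 in any stretch. With stricter limits of 5.5 and 9 only 4 and 1 were left. The files give no background level, so differences against a dim value have no true fold.

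ND-MNLL encodes a small accessory subunit of mitochondrial complex I, the enzyme that passes electrons from NADH to ubiquinone. Its transcript FBtr0071140 also carries CG45089, listed in the gene table as an upstream reading frame, and an array value cannot tell the frames apart. The transcript stood at 11.52 in Kc replicate 1 and 11.41 in Kc replicate 2, and at 11.32 and 11.40 in the Mbn2 samples. The Mbn2 values were lower than both Kc values, but the closest were 0.0109 apart. The difference was -0.11 ± 0.11 (standard error), with a 95% interval of -0.37 to 0.16, and did not pass the test (limma, adjusted p = 0.478). It turned to 0.0066 when centred on bright transcripts. The transcript was brighter in Kc than 77.3% of the members, so a level well above the dim range was measured in every sample. Its 20 nearest members, 10 on either side, held 6 calls towards Mbn2 and 1 towards Kc, with a median difference of 0.13. Over the whole array 21.2% of transcripts were called towards Mbn2 and 27.0% towards Kc.

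The transcript of fend, a gene named forked end and known from the fly nervous system, was dim in both lines. It stood at 5.39 and 5.62 in the Kc samples and at 5.28 and 5.20 in the Mbn2 samples. The Mbn2 values lay below both Kc values, by 0.11 at the closest, and the Kc samples were 0.23 apart. The difference was -0.26 ± 0.12 (standard error), with a 95% interval of -0.57 to 0.04, and did not pass the test (limma, adjusted p = 0.139, and 0.0743 to 0.426 over the alternatives). At such a level a difference has little meaning, because the value may be background. Its 10 nearest members, all of lower number, held 6 calls towards Kc and 0 towards Mbn2, with a median difference of -0.40. Of all transcripts 27.0% were called towards Kc and 21.2% towards Mbn2.

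The members farthest apart carry no gene name. FBtr0070631 stood at 7.41 and 7.24 in the Kc samples and at 15.28 and 15.34 in the Mbn2 samples, among the brightest values of the block. The difference of 7.98 ± 0.11 (standard error; limma, adjusted p = 2.53e-06) joins a Kc level between dim and bright to an Mbn2 level near the top of the scale. Its neighbours did not share it: the member before it differed by 0.25, and the one after it by -2.10, towards Kc. FBtr0070606 was likewise higher in Mbn2, at 5.98 in both Kc samples and at 13.23 and 13.50 in the Mbn2 samples (difference 7.38 ± 0.13, limma adjusted p = 2.88e-06). The member after it was also higher in Mbn2, by 1.82, while the one before it differed by 0.0058.

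In the direction of Kc, FBtr0071329 stood at 12.00 and 11.88 in the Kc samples and at 6.45 and 6.16 in the Mbn2 samples (difference -5.64 ± 0.14, limma adjusted p = 4.47e-06). The next member was likewise lower in Mbn2, by -3.74. FBtr0070507 stood at 11.59 and 11.46 in the Kc samples and at 6.54 and 6.12 in the Mbn2 samples (difference -5.20 ± 0.16, limma adjusted p = 9.02e-06). For these 4 transcripts the samples of a line lay at most 0.42 apart, and the closest samples of different lines were 4.92 apart. They were picked as the called members farthest apart, so this separation follows from the choice. Without moderation of the variances they were still called (limma without moderation, adjusted p = 0.0171 to 0.024). Among members bright in both lines, where a fold can be read, the differences were smaller and reached 17.8-fold towards Kc and 8.43-fold towards Mbn2.

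**Figure D5:**
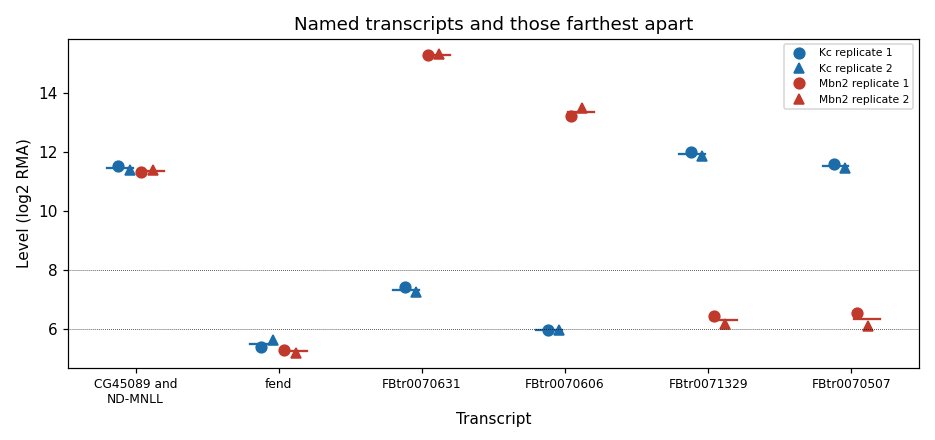
Level (log2 RMA) of the 2 named transcripts and of the 2 farthest apart in each direction, in each sample. Blue symbols are Kc and red symbols Mbn2, circles replicate 1 and triangles replicate 2, short lines the line means, and dotted lines the limits of dim (6) and bright (8); the named transcripts lie together in both lines, at about 11.4 for that of ND-MNLL and under 6 for that of fend.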

How the data were processed

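The authors deposited log2 values, 1 for each transcript in each sample; RMA (robust multi-array average) made them, as the submitters' processing notes name it. Per the series' design text the array holds 12 probes of 60 nucleotides per gene. Neither its settings and version nor the build and annotation release are stated in the sources. Array quantiles nearly coincided, so total RNA is not comparable, and the 4 arrays limit precision.

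Differences are Mbn2 minus Kc. limma 3.58.1 in R 4.3.3 (lmFit, eBayes, two-sided, no covariate, no row filter) was fitted to all 15634 rows on the deposited log2 values and tested on simulated data; adjusted p-values are Benjamini-Hochberg over all rows. Stretches are 50 consecutive member rows. Members, lists, limits and tests were chosen with earlier results of these data known. All members that the gene table pairs with a symbol are named, and of the unnamed the 2 per direction farthest apart among those called. Gene lists were not used, as only 2 members have names; nor were cell type markers. No sequence is printed, as none was read here. Same-numbered samples of the lines were not paired (r = -0.048 between their deviations from the line means, across transcripts). Summaries used Python 3.11.15.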

Additional observations from a re-analysis of the deposited data

How the results depend on the processing

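The settings tried were an intensity trend, a replicate block, no moderation, centring on transcripts over 9, a second quantile normalization, log2(2 to the power of the value, plus 16), leaving out rows below the median, leaving out each sample, other limits, and other stretches. The fit with a replicate block gave 320 members higher in Kc and 222 in Mbn2 and changed no call of the 6 transcripts given singly. Without moderation 160 were higher in Kc and 131 in Mbn2. Centred, the median difference was 0.0068 over the block and -0.082 over bright members, stretch medians ran from -0.2089 to 0.4406, and the transcript of ND-MNLL was at 0.0066; all follow from subtracting the same median. With 16 added the block's median was -0.0808, the highest stretch 0.26, and 6 members went from bright in Kc to dim in Mbn2. With rows below the median left out, which removes dim members, 71 were at least 2-fold higher in Kc and 49 in Mbn2, the median was -0.1815, 2 and 0 members went from dim to bright and bright to dim, and stretches of the rows left ran from -0.5272 to -0.0097. Limits of 5.5 and 9 left 4 and 1. Stretches of 25 ran from -0.6575 to 0.4259, the highest of 100 was 0.1316, and bright rows alone ran from -0.9687 to 0.4271. Each sample was left out in turn, which treats the remaining sample of its line as varying like the rest; this gave 267 to 313 members higher in Kc and 176 to 217 in Mbn2, a block median of -0.1274 to -0.101, a bright median of -0.2068 to -0.1561, a lowest stretch of -0.3909 to -0.3068 and a highest of 0.2934 to 0.3533. Other causes were not tested. Dim values are limited by an unknown background.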
